A study of Homo sapiens with 12 samples.

Results

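The genes of cholesterol synthesis, uptake and export were followed as a set of 30 named genes in 2 human pancreatic cancer cell lines grown in 3 matrices. The set held 19 enzymes of synthesis and 11 genes that regulate synthesis, move cholesterol within the cell, export it or store it. The members were chosen by name from knowledge of the pathway, with earlier results of these data already known. Their Ensembl genes were then looked up in the deposited table. All 30 were among its 16299 genes, and all 30 passed the filter on low values that left 15794 genes to test. The study asks about the mechanical and biological surroundings of pancreatic ductal adenocarcinoma. Messenger RNA was sequenced from the established lines BXPC3 and PANC1, each cultured in collagen, in 5% gelatin methacryloyl (GelMA, gelatin carrying methacryloyl groups so that it can be cross-linked) or in 7.5% GelMA. Each of the 6 groups held 2 libraries, 12 in all. Both lines had been kept in high glucose medium with foetal bovine serum, itself a source of lipoprotein cholesterol, and no other treatment or genetic change is named. How stiff the gels were, how long the cells stayed in them and whether the 2 libraries of a group came from separate cultures is not stated in the labels. A p-value here therefore reflects the spread between single libraries of a group, and that spread may be technical.

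Cells make cholesterol from acetyl-CoA through mevalonate, the isoprenoids, squalene and lanosterol. When sterols in the endoplasmic reticulum are low, SCAP escorts the membrane-bound transcription factor SREBP2, the product of SREBF2, to the Golgi, where it is cut and released to activate the genes of synthesis and uptake. When sterols are high, the INSIG proteins hold SCAP back, and oxysterols activate the nuclear receptor LXR, which drives export genes such as ABCA1 and ABCG1.

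Values are the deposited log2 RPKM (a read density), which are corrected for gene length and, judged from their ranks, quantile normalized over all libraries. A log2 difference of 1 is a doubling of RPKM. Sequencing depth is unknown. Across genes the correlation of the 2 libraries in a group was 0.9921 to 0.9948, and their difference had a standard deviation of 0.295 to 0.364 log2, highest for BXPC3 in collagen. Epithelial keratins stood at 9.64 log2 RPKM or more in all 12 libraries, while CDH1, the epithelial adhesion protein E-cadherin, was at 8.22 to 8.40 in BXPC3 and at 4.20 to 4.86 in PANC1. Of 5 fibroblast and stellate cell markers only COL1A1 was in the table, and of 4 immune markers only CD3E, at 1.12 or less. The endothelial markers PECAM1 and VWF were at 1.44 or less. In bulk RNA, fewer cells of a kind and less RNA per cell cannot be told apart.

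Promoter sequences are shown first for SREBF2, HMGCS1, EBP, INSIG1 and INSIG2, because these 5 genes carry the main patterns below. They are the transcription factor, the synthesis enzymes with the highest rise in each line, and the pair of INSIG genes. The INSIG genes went opposite ways in BXPC3 and in PANC1 5% GelMA. Both were lower than collagen in PANC1 7.5% GelMA. Each sequence runs 5′ to 3′ over the 250 bases that end just before a RefSeq start site (GRCh38.p14). Capitals mark matches, on either strand, to a sterol element spelled TCACNCCAC, the CCAAT box (CCAAT) or the GC box (GGGCGG). The windows are chr22:41832855-41833104 (plus strand) for SREBF2, chr5:43313413-43313662 (minus strand) for HMGCS1, chrX:48521558-48521807 (plus strand) for EBP, chr7:155297628-155297877 (plus strand) for INSIG1 and chr2:118088221-118088470 (plus strand) for INSIG2.
SREBF2: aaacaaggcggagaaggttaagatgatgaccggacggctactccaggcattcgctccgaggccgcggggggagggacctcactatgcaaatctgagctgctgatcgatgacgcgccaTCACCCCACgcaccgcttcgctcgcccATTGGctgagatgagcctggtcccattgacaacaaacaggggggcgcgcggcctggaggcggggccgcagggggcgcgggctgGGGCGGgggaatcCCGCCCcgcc
HMGCS1: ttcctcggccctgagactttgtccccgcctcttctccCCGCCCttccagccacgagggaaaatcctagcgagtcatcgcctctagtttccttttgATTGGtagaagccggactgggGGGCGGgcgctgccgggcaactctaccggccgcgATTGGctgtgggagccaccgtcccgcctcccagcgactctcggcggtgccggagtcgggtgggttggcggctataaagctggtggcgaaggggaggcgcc
EBP: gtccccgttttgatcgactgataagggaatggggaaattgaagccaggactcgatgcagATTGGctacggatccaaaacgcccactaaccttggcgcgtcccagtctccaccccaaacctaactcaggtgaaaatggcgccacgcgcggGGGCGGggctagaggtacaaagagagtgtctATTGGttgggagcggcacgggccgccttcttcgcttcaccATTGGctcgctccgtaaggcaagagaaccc
INSIG1: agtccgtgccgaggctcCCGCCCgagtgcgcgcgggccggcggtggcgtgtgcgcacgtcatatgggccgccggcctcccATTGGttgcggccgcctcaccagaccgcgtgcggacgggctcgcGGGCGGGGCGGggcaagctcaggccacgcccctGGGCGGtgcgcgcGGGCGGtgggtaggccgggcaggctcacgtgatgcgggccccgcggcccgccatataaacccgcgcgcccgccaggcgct
INSIG2: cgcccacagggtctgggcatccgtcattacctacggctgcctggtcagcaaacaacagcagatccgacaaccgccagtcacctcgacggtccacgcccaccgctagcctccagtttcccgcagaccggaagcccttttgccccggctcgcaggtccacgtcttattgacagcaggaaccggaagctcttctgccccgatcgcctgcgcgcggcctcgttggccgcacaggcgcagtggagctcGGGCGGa

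RefSeq promoters were at hand for 26 of the 30 members, and a gene was counted when any of its listed promoters held a match. CCAAT was found for 14 of 16 synthesis genes (87.5%) and for 6 of the other 10 members (60.0%), against 37.0% of 27305 genes with a promoter of the same length. GGGCGG was found for 15 of 16 synthesis genes (93.8%) and for all 10 others, against 46.24% of all genes. These 27305 genes outnumber the 16299 of the deposited table, and no share among the tested genes alone was computed. The sterol element was found in SREBF2 alone among the 26, 133 to 125 bases before its start site, against 1.09% of all genes. Only this 1 spelling was searched, over 250 bases, so a missing match does not show that a gene lacks a sterol element. INSIG2 held no CCAAT in either of its listed promoters, whereas INSIG1 held 1 CCAAT and 5 GC boxes in the window printed above. A match to these letters is a description of the sequence and not a measured binding site, and 2 of the GC boxes of INSIG1 share a base.

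Most enzymes of synthesis were higher in GelMA than in collagen in both lines. The list was chosen with earlier results of these data known, so the counts below describe it and test nothing. In BXPC3, 15 of the 19 were higher in GelMA (mean of 5% and 7.5%) than in collagen and 0 were lower, where 19.4% of all tested genes were higher and 16.7% lower (limma, adjusted p under 0.05). Their median difference was 0.56 log2, against 0.008 over all genes. In PANC1, 16 of 19 were higher and 0 lower, against 27.7% and 27.4% of all genes, with a median of 0.54 against -0.007. The lines share no libraries, but 1 fit of all 12 gave both comparisons a common estimate of spread. The values were also taken to be quantile normalized over both lines. In both lines 14 of the 19 were higher, against 9.02% of all genes: ACAT2, HMGCS1, MVK, MVD, IDI1, FDPS, SQLE, LSS, TM7SF2, MSMO1, NSDHL, EBP, SC5D and DHCR7. GGPS1 and FDFT1 were called in neither, and the 11 regulators and transport genes divided in other ways, as shown in the plot of differences by gene.

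**Figure D1:**
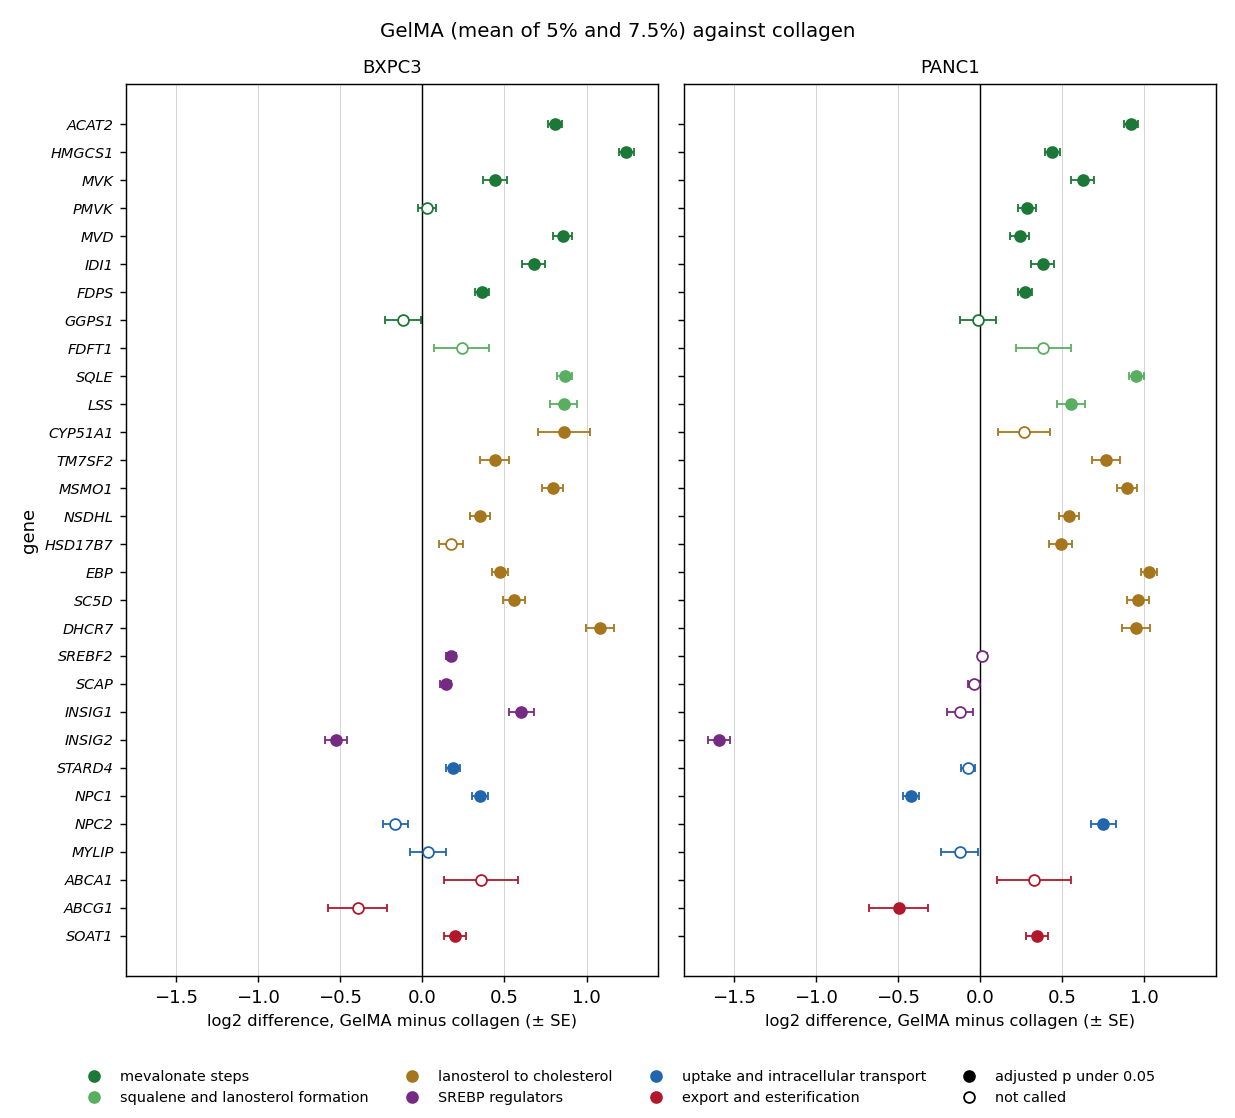
Difference between GelMA (mean of 5% and 7.5%) and collagen in log2 RPKM (horizontal axis, error bars ± SE) for the 30 genes (vertical axis, coloured by role) in BXPC3 and PANC1, filled where the adjusted p was under 0.05. GGPS1 is the 1 synthesis gene below 0 (-0.12 and -0.01), INSIG2 lies farthest to the left in both lines, and NPC1 lies on opposite sides of 0.

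The mevalonate steps were led by HMGCS1 in BXPC3 and by ACAT2 in PANC1. HMGCS1 (ENSG00000112972, chromosome 5, 43289395 to 43313512) makes HMG-CoA, the precursor of mevalonate. Its log2 RPKM in BXPC3 was 7.49 and 7.44 in collagen, 8.51 and 8.68 in 5% GelMA and 8.80 and 8.84 in 7.5% GelMA. In PANC1 it was 6.15 and 6.14 in collagen, 6.82 and 6.76 in 5% and 6.37 and 6.40 in 7.5% GelMA. Every GelMA library was above both collagen libraries of its line, with a far smaller gap in PANC1. The difference was 1.24 ± 0.045 log2 in BXPC3 (SE, 2.37-fold, adjusted p = 4.28e-07) and 0.44 ± 0.045 in PANC1 (1.36-fold, adjusted p = 2.06e-05). The 2 effects differed by -0.80 ± 0.063 log2 (PANC1 effect minus BXPC3 effect, adjusted p = 1.11e-05).

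ACAT2, which joins acetyl-CoA units at the entry of the pathway, rose in both lines. It was at 4.86 and 4.98 in collagen and at 5.62 to 5.81 in the 4 GelMA libraries of BXPC3. ACAT2 in PANC1 was at 5.61 and 5.55 in collagen and at 6.31 to 6.65 in GelMA. No GelMA library overlapped the collagen libraries. The differences were 0.81 ± 0.043 (adjusted p = 4.59e-06) and 0.92 ± 0.043 (adjusted p = 1.32e-07), and that between the lines was not called (0.11, adjusted p = 0.191). In GENCODE 29, 52.3% of the exon bases of ACAT2 are shared with genes on the opposite strand, and the strand setting of the counting is not given, so reads of such partners may be included.

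MVK and PMVK phosphorylate mevalonate in turn. MVK rose by 0.44 ± 0.071 log2 in BXPC3 (adjusted p = 0.00109) and by 0.63 ± 0.071 in PANC1 (adjusted p = 4.4e-05). PMVK stood at 3.79 to 3.98 in all 6 BXPC3 libraries, with collagen and GelMA overlapping (0.03 ± 0.053, adjusted p = 0.715). In PANC1 it rose by 0.29 ± 0.053 (adjusted p = 0.00112), from 4.83 and 4.76 in collagen to 5.06 to 5.14 in GelMA. The difference between the lines, 0.26 ± 0.075 (adjusted p = 0.0208), was lost without BXPC3 collagen replicate 1 (adjusted p = 0.0681) or PANC1 collagen replicate 2 (adjusted p = 0.0807).

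MVD, which forms isopentenyl pyrophosphate, the isoprene unit, rose more in BXPC3 than in PANC1. Its BXPC3 values were 5.78 and 5.60 in collagen, 6.64 and 6.50 in 5% and 6.52 and 6.53 in 7.5% GelMA, a clear gap with no overlap. Its PANC1 values were 5.84 and 5.74 in collagen, 6.21 and 6.19 in 5% and 5.81 and 5.92 in 7.5% GelMA. The 7.5% libraries thus overlapped collagen in PANC1. The differences were 0.86 ± 0.059 (adjusted p = 1.33e-05) and 0.24 ± 0.059 (adjusted p = 0.00547), and the difference between the lines was -0.61 ± 0.083 (adjusted p = 0.000303). Without PANC1 collagen replicate 2 the PANC1 difference was 0.20 and was not called (adjusted p = 0.0611).

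IDI1, which interconverts the 2 isoprene units, rose by 0.68 ± 0.07 in BXPC3 (adjusted p = 9.77e-05) and by 0.38 ± 0.07 in PANC1 (adjusted p = 0.00102). FDPS, which joins them into farnesyl pyrophosphate, rose by 0.36 ± 0.042 (adjusted p = 0.000186) and 0.28 ± 0.042 (adjusted p = 0.000335). GGPS1 makes geranylgeranyl pyrophosphate, used for anchoring proteins to membranes, and so leads away from cholesterol. It was at 2.22 to 2.55 in BXPC3 and 2.81 to 3.10 in PANC1, collagen and GelMA overlapping in each (-0.12 ± 0.111, adjusted p = 0.447; -0.01 ± 0.111, adjusted p = 0.938). Exons of GGPS1, FDPS, HMGCS1 and IDI1 are shared with other genes over 41.0%, 18.6%, 15.0% and 14.8% of their bases, and FDPS and IDI1 belong to families with close copies, so their levels are uncertain to that extent.

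The plot by library shows 6 synthesis genes, 1 panel each.

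**Figure D2:**
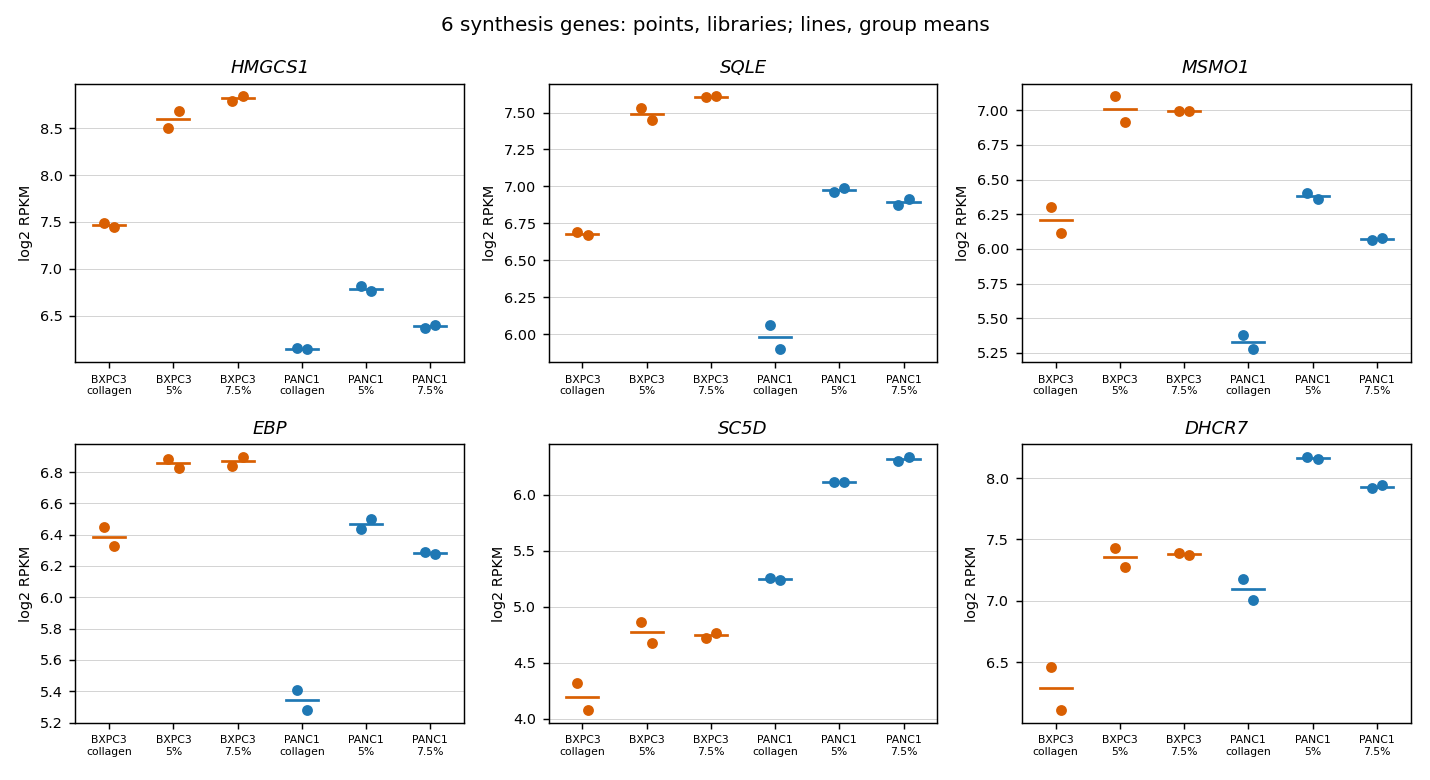
Log2 RPKM (vertical axis) of HMGCS1, SQLE, MSMO1, EBP, SC5D and DHCR7 in each library, by line and matrix (horizontal axis); points are libraries and lines are group means of 2 libraries. Collagen is lowest in both lines for all 6 genes, and HMGCS1 shows the widest gap between the lines (3.61-fold).

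At squalene, SQLE and LSS rose in both lines. SQLE, which adds oxygen to squalene and is a control point of the pathway, was at 6.69 and 6.67 in collagen and 7.45 to 7.61 in GelMA in BXPC3. PANC1 had 6.06 and 5.90 in collagen and 6.87 to 6.99 in GelMA. The gap was wide and of like size in both lines, at 0.87 ± 0.045 (1.82-fold, adjusted p = 3.62e-06) and 0.95 ± 0.045 (1.94-fold, adjusted p = 1.24e-07), with a difference between the lines of 0.09 ± 0.063 (adjusted p = 0.303). LSS, which folds the product into lanosterol, rose by 0.86 ± 0.084 (adjusted p = 7.42e-05) and 0.56 ± 0.084 (adjusted p = 0.000315). Without BXPC3 collagen replicate 1, which was higher for LSS than replicate 2 (5.40 against 5.02), the difference between the lines was called (-0.49, adjusted p = 0.000935).

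FDFT1, squalene synthase, which commits farnesyl pyrophosphate to sterols, behaved apart from its neighbours. Its BXPC3 values were 3.57 and 3.02 in collagen, 3.71 and 3.58 in 5% and 3.51 and 3.33 in 7.5% GelMA, an overlapping range. Its PANC1 values were 1.68 and 1.55 in collagen, 3.09 and 2.63 in 5% GelMA and 1.21 and 1.08 in 7.5% GelMA. In PANC1 the 5% libraries were therefore the highest and the 7.5% libraries the lowest, below collagen. The mean GelMA differences, 0.24 ± 0.167 (adjusted p = 0.294) in BXPC3 and 0.39 ± 0.167 (adjusted p = 0.0744) in PANC1, were not called. Against collagen in PANC1, 5% GelMA was higher by 1.24 ± 0.193 (2.37-fold, adjusted p = 0.000542), and 7.5% differed by -0.47 ± 0.193 (adjusted p = 0.0623). The PANC1 mean difference of 0.39 was called without either BXPC3 collagen library (adjusted p = 0.0361 and 0.0354) and was 0.50 without PANC1 5% GelMA replicate 2 (adjusted p = 0.0286); with the replicate number as a block its adjusted p was 0.0293.

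Of the 8 genes from lanosterol to cholesterol, 7 rose in BXPC3 and 7 in PANC1, against 19.4% and 27.7% of all genes. EBP (ENSG00000147155, chromosome X, 48521158 to 48528716), the sterol isomerase, had the highest rise of all 30 genes in PANC1. It was at 5.41 and 5.28 in collagen, 6.44 and 6.50 in 5% and 6.29 and 6.28 in 7.5% GelMA in that line. In BXPC3 it was at 6.45 and 6.33 in collagen and 6.83 to 6.90 in GelMA. GelMA stood above collagen without overlap in both. In the deposited values EBP in PANC1 GelMA came near the collagen level of BXPC3. The differences were 1.03 ± 0.047 in PANC1 (2.04-fold, adjusted p = 1.13e-07) and 0.47 ± 0.047 in BXPC3 (1.39-fold, adjusted p = 8.45e-05), larger in PANC1 by 0.56 ± 0.067 (adjusted p = 0.000147).

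SC5D, which introduces the ring double bond ahead of the last steps, also rose more in PANC1. It was at 5.25 and 5.24 in collagen, 6.11 and 6.11 in 5% and 6.30 and 6.34 in 7.5% GelMA. In BXPC3 it was at 4.32 and 4.08 in collagen and 4.68 to 4.87 in GelMA. The differences were 0.97 ± 0.067 (adjusted p = 1.71e-06) and 0.56 ± 0.067 (adjusted p = 0.000218), and they differed by 0.41 ± 0.095 (adjusted p = 0.00735). DHCR7, which reduces 7-dehydrocholesterol to cholesterol, rose to a like extent in both lines. It was at 6.47 and 6.11 in collagen and 7.28 to 7.43 in GelMA in BXPC3, and at 7.18 and 7.01 and 7.92 to 8.17 in PANC1. The differences were 1.08 ± 0.086 (2.11-fold, adjusted p = 2.9e-05) and 0.95 ± 0.086 (1.93-fold, adjusted p = 9.7e-06). The difference between the lines was -0.13 ± 0.122 (adjusted p = 0.435), and was -0.31 (adjusted p = 0.0248) without BXPC3 collagen replicate 1.

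MSMO1 and NSDHL act together in removing the methyl groups at carbon 4 of the sterol. MSMO1 rose by 0.79 ± 0.062 in BXPC3 (adjusted p = 2.59e-05) and by 0.90 ± 0.062 in PANC1 (adjusted p = 1.59e-06), and NSDHL by 0.35 ± 0.061 (adjusted p = 0.00165) and 0.54 ± 0.061 (adjusted p = 4.03e-05). TM7SF2, a sterol reductase, rose by 0.44 ± 0.086 (adjusted p = 0.0033) and 0.77 ± 0.086 (adjusted p = 4.07e-05). HSD17B7, the keto reductase that works beside them, was at 3.70 to 3.98 in BXPC3 with GelMA above collagen by 0.17 ± 0.071 (adjusted p = 0.0823), a difference called only without a PANC1 collagen library (adjusted p = 0.0387 and 0.0379). In PANC1 HSD17B7 rose by 0.49 ± 0.071 (adjusted p = 0.000234). Its difference between the lines, 0.32 ± 0.1 (adjusted p = 0.0298), was lost when each of 6 libraries was left out in turn, the highest adjusted p being 0.12.

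CYP51A1, which removes the methyl group at carbon 14 of lanosterol, was the lowest of the synthesis genes in collagen in BXPC3 and PANC1 alike. It was at 0.47 and 0.34 in collagen, 1.13 and 1.20 in 5% and 1.26 and 1.48 in 7.5% GelMA in BXPC3, all GelMA libraries above collagen. In PANC1 it was at 1.15 and 0.68, 1.11 and 1.12 and 1.19 and 1.30, with collagen replicate 1 inside the GelMA range. It rose by 0.87 ± 0.159 in BXPC3 (adjusted p = 0.00239), and the PANC1 difference was 0.27 ± 0.159 (adjusted p = 0.18), or 0.50 (adjusted p = 0.0406) without PANC1 collagen replicate 1. Of its exon bases 83.2% are shared with other annotated genes, so this low level may miss reads that the counting could not assign.

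The 4 SREBP regulators separated the lines. In BXPC3, SREBF2, SCAP and INSIG1 were higher in GelMA and INSIG2 was lower. In PANC1 only INSIG2 was called, lower, and the other 3 had mean differences of 0.02, -0.04 and -0.12. The difference between the lines was called for all 4, each lower in PANC1, where 20.6% of all genes were lower and 18.5% higher in that comparison.

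INSIG2 (ENSG00000125629, chromosome 2, 118088452 to 118110997), a retention factor for SCAP, had the largest fall of the set in both lines. It was at 5.57 and 5.41 in collagen, 4.12 and 4.07 in 5% and 3.71 and 3.69 in 7.5% GelMA in PANC1. In BXPC3 it was at 5.39 and 5.56, 5.05 and 4.92 and 4.87 and 4.94. Collagen was the highest in each line. In the deposited values its levels were alike in both lines, and the lines parted in GelMA. Levels set between the lines depend on the scaling, as described below. The fall was 1.59 ± 0.066 log2 in PANC1 (3.01-fold, adjusted p = 6.07e-08) and 0.53 ± 0.066 in BXPC3 (1.44-fold, adjusted p = 0.000275), with a difference between the lines of -1.06 ± 0.093 (adjusted p = 2.07e-05).

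INSIG1 (ENSG00000186480, chromosome 7, 155297776 to 155310235), the other retention factor and itself an SREBP target, moved otherwise. In BXPC3 it was at 7.23 and 6.91 in collagen, 7.76 and 7.72 in 5% and 7.64 and 7.56 in 7.5% GelMA. The corresponding PANC1 values were 6.55 and 6.36, 6.81 and 6.78 and 5.88 and 5.86. In BXPC3 both percentages were above collagen, while in PANC1 5% was above and 7.5% below it. The mean difference was 0.60 ± 0.078 in BXPC3 (1.52-fold, adjusted p = 0.000351) and -0.12 ± 0.078 in PANC1 (adjusted p = 0.213), and the 2 differed by -0.73 ± 0.111 (adjusted p = 0.000648). In PANC1 5% GelMA was higher than collagen by 0.34 ± 0.091 (adjusted p = 0.012), a call lost without PANC1 collagen replicate 2 (adjusted p = 0.095) or 5% replicate 1 (adjusted p = 0.0628). The 7.5% libraries were lower than collagen by 0.58 ± 0.091 (1.5-fold, adjusted p = 0.00039).

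SREBF2 (ENSG00000198911, chromosome 22, 41833079 to 41907308), whose promoter held the sterol element, changed little. It was at 7.70 and 7.62 in collagen and 7.81 to 7.86 in GelMA in BXPC3. In PANC1 it was at 6.75 and 6.73 in collagen, 6.95 and 6.92 in 5% and 6.56 and 6.58 in 7.5% GelMA. The steps were small but exceeded the spread between libraries: a rise of 0.17 ± 0.029 in BXPC3 (1.13-fold, adjusted p = 0.00142), and in PANC1 a rise of 0.20 ± 0.034 in 5% (adjusted p = 0.000888) and a fall of 0.17 ± 0.034 in 7.5% GelMA (adjusted p = 0.00196). The difference between the lines was -0.16 ± 0.041 (adjusted p = 0.0129), and was -0.12 without BXPC3 collagen replicate 2 (adjusted p = 0.0504). SCAP, the escort, rose by 0.14 ± 0.034 in BXPC3 (adjusted p = 0.00953), with -0.04 ± 0.034 in PANC1 (adjusted p = 0.365) and -0.18 ± 0.048 between them (adjusted p = 0.0144; 0.0512 without PANC1 collagen replicate 1).

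These small steps depended on the scaling. Centring each library on 10 housekeeping genes moved the median of all genes by -0.149 log2 in BXPC3 and -0.034 in PANC1, and the higher share of called genes in BXPC3 fell from 53.8% to 18.6%. Under it the BXPC3 differences became 0.02 for SREBF2, 0.04 for STARD4 and 0.05 for SOAT1, none called, and SCAP turned to -0.01. The counts of synthesis genes higher were still 15 and 16, and INSIG2 and INSIG1 kept their calls. For the difference between the lines in the GelMA effect, the higher share of calls moved from 47.3% to 66.9%, and SREBF2, SCAP and STARD4 were then not called.

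Among 4 genes of uptake and transport, NPC1 and NPC2 differed most between the lines. The 2 proteins hand cholesterol from the lysosome to the rest of the cell, NPC2 in the lumen and NPC1 in the membrane. NPC1 was at 6.30 and 6.15 in collagen and 6.53 to 6.65 in GelMA in BXPC3, and at 6.40 and 6.51 and 6.03 to 6.06 in PANC1. GelMA was above collagen in BXPC3 and below it in PANC1, with no overlap. It rose by 0.35 ± 0.049 (adjusted p = 0.000539) and fell by 0.42 ± 0.049 (adjusted p = 5.6e-05), a difference between the lines of -0.77 ± 0.07 (adjusted p = 2.48e-05). It was the 1 member of the 30 called in opposite directions, a share no higher than the 6.38% among all tested genes.

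NPC2 (ENSG00000119655, chromosome 14, 74476192 to 74494177) was at 4.36 and 4.13 in collagen and 4.97 to 5.03 in GelMA in PANC1. In BXPC3 it was at 7.16 and 7.03, 7.15 and 6.89 and 6.85 and 6.83 in collagen, 5% and 7.5% GelMA. PANC1 thus rose from a low level with no overlap, and the BXPC3 groups overlapped at a high one. The rise in PANC1 was 0.75 ± 0.077 (1.68-fold, adjusted p = 2.19e-05), the BXPC3 difference was -0.17 ± 0.077 (adjusted p = 0.122), and the lines differed by 0.92 ± 0.109 (adjusted p = 0.000136). In BXPC3 a fall of 0.23 was called without 5% GelMA replicate 1 (adjusted p = 0.0271), and one of 0.31 with housekeeping centring.

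STARD4, which carries cholesterol between membranes and is an SREBP2 target, rose by 0.19 ± 0.044 in BXPC3 (adjusted p = 0.00878), or 0.12 without BXPC3 collagen replicate 2 (adjusted p = 0.103). In PANC1 its mean difference was -0.07 ± 0.044 (adjusted p = 0.188), with a fall of 0.24 ± 0.051 in 7.5% GelMA (adjusted p = 0.00265). The lines differed by -0.26 ± 0.063 (adjusted p = 0.00852). MYLIP, an LXR-driven ligase that marks lipoprotein receptors for breakdown, was not called in either line (0.03 ± 0.111, adjusted p = 0.843; -0.12 ± 0.111, adjusted p = 0.372).

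Neither export pump was called higher in GelMA in the main fit. ABCA1, which loads cholesterol onto apolipoproteins, was at 5.86 and 4.98 in collagen, 6.18 and 5.62 in 5% and 5.68 and 5.62 in 7.5% GelMA in BXPC3. PANC1 values were 2.78 and 2.79, 3.13 and 3.11 and 3.33 and 2.89 in the same order. The 2 BXPC3 collagen libraries were far apart, and only the lower one lay under every GelMA library. In PANC1 every GelMA library lay above both collagen libraries, but the SE is estimated over all groups together. The differences were 0.36 ± 0.225 (adjusted p = 0.25) and 0.33 ± 0.225 (adjusted p = 0.24), and the BXPC3 one was 0.80 (adjusted p = 0.0158) without BXPC3 collagen replicate 1.

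ABCG1, which loads lipoprotein particles, was near 1 RPKM. In PANC1 it was at 0.80 and 0.82 in collagen, 0.56 and 0.87 in 5% and 0.07 and -0.25 in 7.5% GelMA. Only the 7.5% libraries were clear of the rest. The mean fall was 0.50 ± 0.181 in PANC1 (adjusted p = 0.0404), a call lost when each of 6 libraries was left out in turn (adjusted p up to 0.14), and 0.90 ± 0.209 for 7.5% GelMA against collagen (adjusted p = 0.00467). The BXPC3 difference was -0.40 ± 0.181 (adjusted p = 0.117), and was -0.54 (adjusted p = 0.0419) with housekeeping centring. At such low levels a log2 difference also depends on the unstated offset in the deposited values.

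SOAT1, which esterifies cholesterol for storage in droplets, was at 5.25 and 5.27 in collagen and 5.53 to 5.71 in GelMA in PANC1, and at 4.82 and 4.55 and 4.82 to 4.99 in BXPC3. The PANC1 groups were apart, and in BXPC3 the higher collagen library sat at the lower edge of GelMA. It rose by 0.35 ± 0.068 in PANC1 (adjusted p = 0.00159). The BXPC3 difference of 0.20 ± 0.068 (adjusted p = 0.0457) lost its call in 14 of 20 alternatives, with 0.06 without BXPC3 collagen replicate 2 (adjusted p = 0.48). In all, 6 of these 11 genes were higher and 1 lower in BXPC3, against 19.4% and 16.7% of all genes. That count depended on the scaling. With housekeeping centring only INSIG1 and NPC1 were still called higher in BXPC3, and INSIG2, NPC2 and ABCG1 were called lower. Under it 1223 of all tested genes were higher and 5362 lower. In PANC1 2 of the 11 were higher and 3 lower in the main fit, no more than the 27.7% and 27.4% of all genes. In PANC1 the fibroblast marker COL1A1 also rose, by 1.66 log2, from 6.49 to 6.52 in collagen to 7.72 to 8.71 in GelMA, 4 of 5 epithelial markers rose (EPCAM by 1.00), and of the endothelial markers PECAM1 rose by 0.83, to -3.36 at most. In BXPC3 COL1A1 rose by 0.20, from 3.16 to 3.22 in collagen to 3.33 to 3.47 in GelMA, and 2 of 5 epithelial markers rose, KRT8 by 0.49 and KRT18 by 0.26. The part of these markers in the changes of the 30 genes, synthesis included, was not tested.

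**Figure D3:**
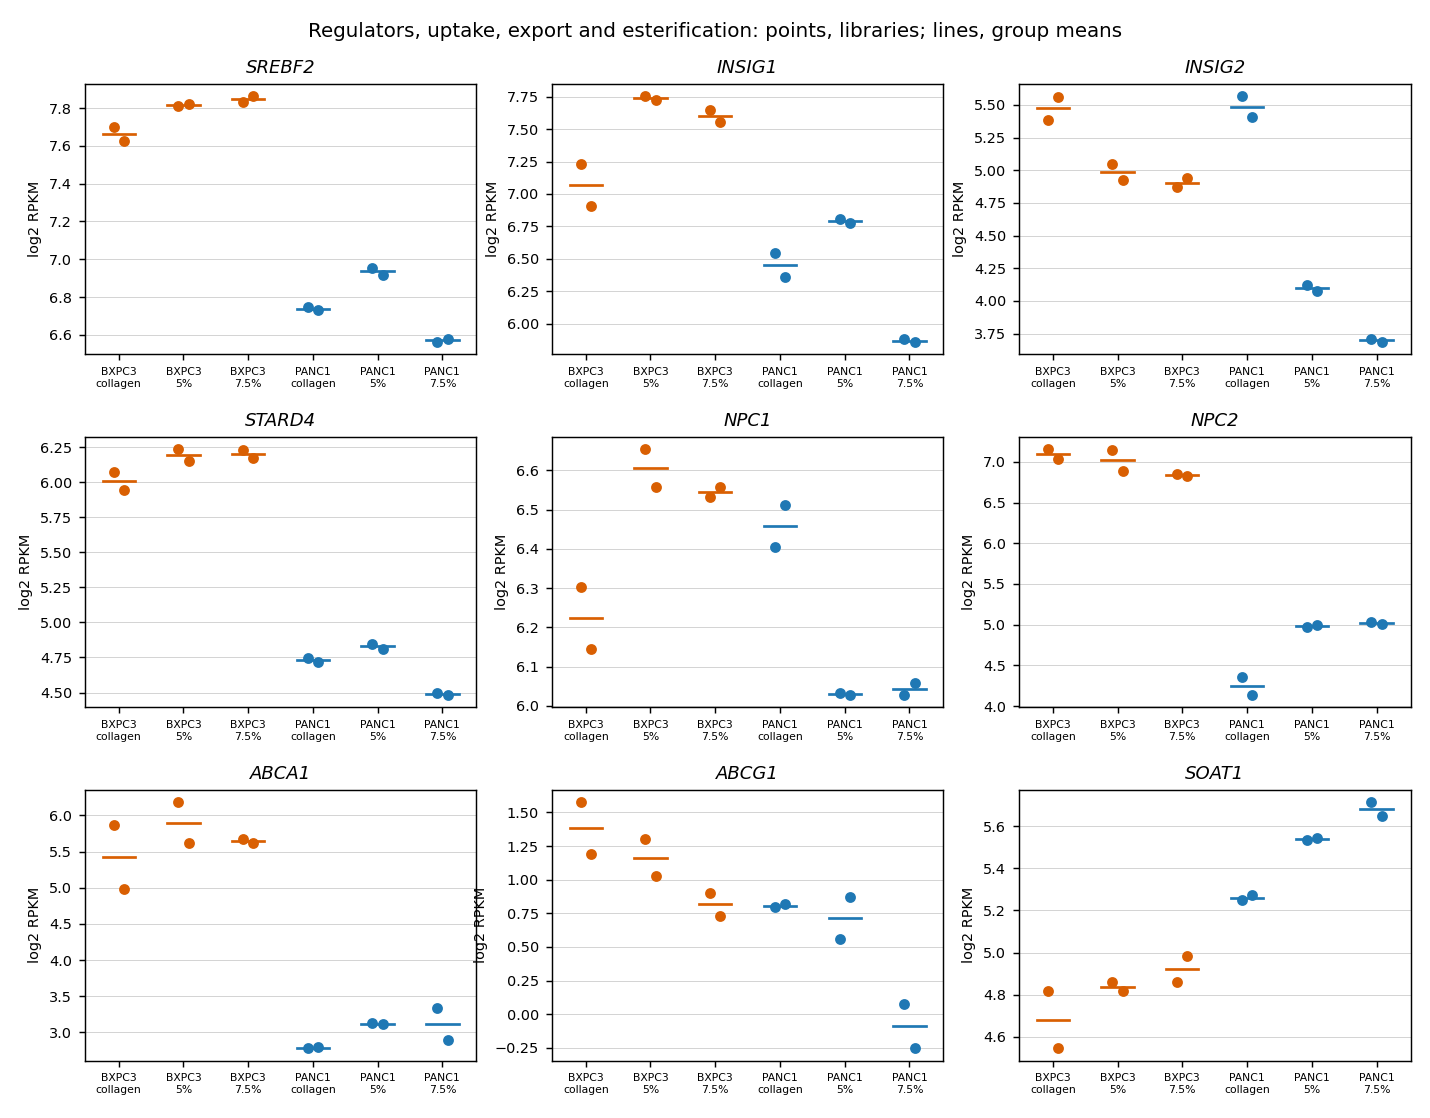
Log2 RPKM (vertical axis) of SREBF2, INSIG1, INSIG2, STARD4, NPC1, NPC2, ABCA1, ABCG1 and SOAT1 in each library, by line and matrix (horizontal axis); points are libraries and lines are group means of 2 libraries. INSIG2 falls from collagen to GelMA in both lines (1.44-fold in BXPC3 and 3.01-fold in PANC1), and NPC1 goes up in BXPC3 and down in PANC1.

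The 2 percentages of GelMA differed in PANC1. There 9 of 19 synthesis genes and 5 of the other 11 were lower in 7.5% than in 5% GelMA and 0 were higher, against 9.56% of all genes lower and 9.16% higher. In BXPC3, 0 of 30 were called by limma, against 0.0823% of all genes in either direction. At an unadjusted p under 0.05 the BXPC3 count was 4 members (ACAT2, HMGCS1, SQLE and MYLIP) and 9.45% of all genes. Housekeeping centring moved the higher share of called genes from 48.9% to 36.3% in PANC1 and from 53.8% to 33.3% in BXPC3.

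FDFT1 had the largest step, a fall of 1.72 ± 0.193 log2 from 5% to 7.5% (3.28-fold, adjusted p = 0.000299). INSIG1 fell by 0.92 ± 0.091 (1.89-fold, adjusted p = 0.000158), HSD17B7 by 0.56 ± 0.082 (adjusted p = 0.00142) and FDPS by 0.51 ± 0.049 (adjusted p = 0.000136). FDPS was back at its collagen level in 7.5% GelMA, with 6.90 and 6.90 against 6.96 and 6.79 in collagen and 7.41 and 7.41 in 5%. HMGCS1 fell by 0.40 ± 0.052 (adjusted p = 0.00062), ACAT2 by 0.31 ± 0.05 (adjusted p = 0.00253) and SREBF2 by 0.37 ± 0.034 (adjusted p = 0.000108). STARD4 fell by 0.34 ± 0.051 (adjusted p = 0.00169) and INSIG2 by 0.40 ± 0.076 (adjusted p = 0.0056).

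A further 5 falls, each past the threshold, were less stable. IDI1 (-0.40 ± 0.081, adjusted p = 0.00743), MVD (-0.33 ± 0.068, adjusted p = 0.00806), MSMO1 (-0.31 ± 0.071, adjusted p = 0.0137), EBP (-0.19 ± 0.055, adjusted p = 0.041) and ABCG1 (-0.81 ± 0.209, adjusted p = 0.0244) each lost the call without at least 1 PANC1 GelMA library. MSMO1 and EBP lost it whichever of the 4 was left out. SC5D and SQLE were not called, at 0.21 ± 0.077 (adjusted p = 0.0966) and -0.09 ± 0.051 (adjusted p = 0.295). SC5D and CYP51A1 were the late enzymes whose 7.5% libraries were both above the 5% libraries, and the step of SC5D was called when either BXPC3 collagen library was left out (adjusted p = 0.037 and 0.0367). In the same settings LSS (-0.22, adjusted p = 0.0172 and 0.0171) and DHCR7 (-0.23, adjusted p = 0.0299 and 0.0298) were called lower, and all 3 were called with PANC1 fitted alone.

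**Figure D4:**
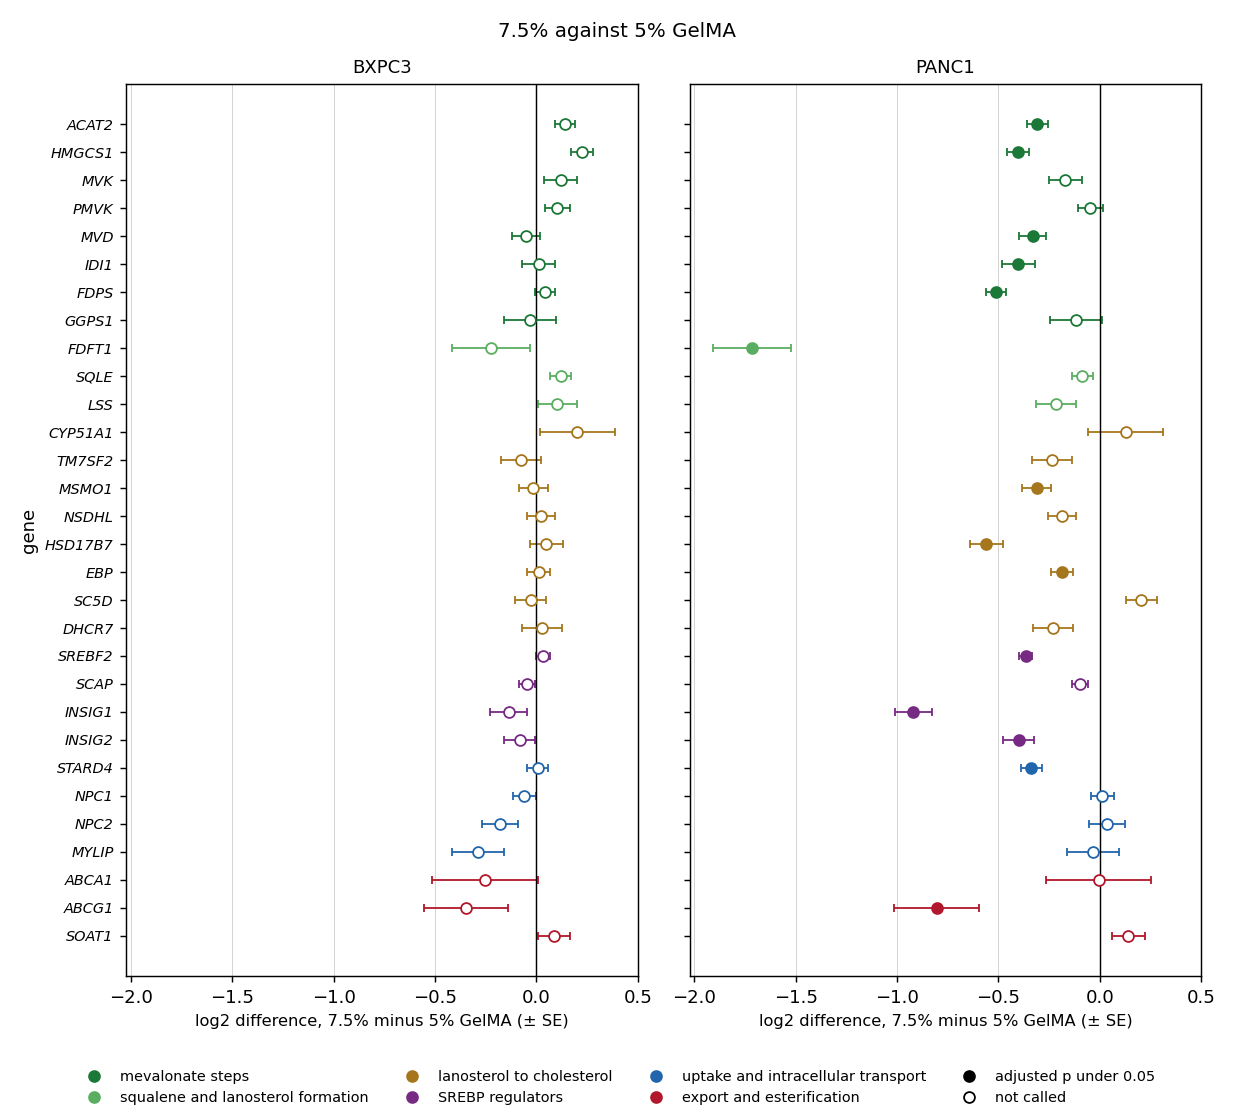
Difference between 7.5% and 5% GelMA in log2 RPKM (horizontal axis, error bars ± SE) for each of the 30 genes (vertical axis) in BXPC3 and PANC1, filled where the adjusted p was under 0.05. In PANC1 14 genes were called lower and FDFT1 lies at -1.72, while 0 genes were called in BXPC3.

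The step from 5% to 7.5% itself differed between the lines for 8 members, all lower in PANC1, where 4.96% of all genes were lower and 4.01% higher. These were 5 synthesis genes, FDFT1 (-1.49 ± 0.273, adjusted p = 0.00976), HMGCS1 (-0.63 ± 0.073, adjusted p = 0.00118), HSD17B7 (-0.61 ± 0.116, adjusted p = 0.0116), FDPS (-0.56 ± 0.069, adjusted p = 0.0016) and ACAT2 (-0.45 ± 0.071, adjusted p = 0.00483). The others were INSIG1 (-0.78 ± 0.128, adjusted p = 0.00588), SREBF2 (-0.40 ± 0.047, adjusted p = 0.0013) and STARD4 (-0.35 ± 0.072, adjusted p = 0.0182). HSD17B7 and STARD4 lost the call without certain single GelMA libraries, the highest adjusted p being 0.0765.

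Against collagen in PANC1, 17 of 19 synthesis genes were higher in 5% GelMA and 12 in 7.5% GelMA, with 0 lower in either. Of all genes, 23.0% were higher and 23.2% lower in 5%, and 27.2% higher and 26.6% lower in 7.5%. The 2 comparisons share the collagen libraries. MVD, IDI1, FDPS, FDFT1 and HSD17B7 were called in 5% and not in 7.5%, where their differences were 0.08, 0.18, 0.02, -0.47 and 0.21. Under some alternatives 4 of these were called in 7.5% too: FDFT1, lower, in 7 of 20 (adjusted p = 0.0237 with the replicate block), and, higher, HSD17B7 in 4 (0.00874 without PANC1 collagen replicate 1), IDI1 in 3 (0.0178 without BXPC3 collagen replicate 2) and FDPS in 1 (0.0356 without PANC1 collagen replicate 1). EBP (1.12 and 0.94), SC5D (0.86 and 1.07), SQLE (1.00 and 0.91) and DHCR7 (1.07 and 0.84) were called in both. Of the other 11 genes, 4 were higher and 2 lower in 5%, and 2 higher and 6 lower in 7.5%.

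Of the 19 synthesis genes, 7 differed between the lines in the size of the GelMA effect, 3 lower in PANC1 (HMGCS1, MVD and IDI1) and 4 higher (PMVK, HSD17B7, EBP and SC5D). That share is near the background, in which 20.6% of all genes were lower and 18.5% higher. IDI1 (-0.29 ± 0.099, adjusted p = 0.039) lost its call in 11 of 19 alternatives, with -0.16 without BXPC3 collagen replicate 2 (adjusted p = 0.149). Among the other 11, INSIG2, NPC1, INSIG1, STARD4, SCAP and SREBF2 were lower and NPC2 was higher in PANC1. With housekeeping centring, which shifts this comparison by 0.115 log2 for the median gene, the counts were 11 synthesis genes and 4 others.

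The lines also differed in level over the 3 matrices, where 50.0% of all genes were higher in PANC1 and 41.9% lower. Of 19 synthesis genes 8 were higher and 9 lower in PANC1, and of the other 11, 1 was higher (SOAT1) and 9 lower. Housekeeping centring moved the median of all genes here by -0.39 log2 and the higher share of calls from 54.4% to 39.4%, and it turned LSS (from 0.16 to -0.23), CYP51A1 (from 0.11 to -0.28) and NSDHL (from 0.23 to -0.16). Differences well beyond that shift were those of ABCA1 (-2.65 ± 0.15, 6.28-fold lower in PANC1, adjusted p = 1.92e-08), NPC2 (-2.24 ± 0.051, 4.71-fold lower, adjusted p = 1.08e-11) and HMGCS1 (-1.85 ± 0.03, 3.61-fold lower, adjusted p = 8.48e-13). FDFT1 (-1.58 ± 0.111), STARD4 (-1.45 ± 0.03), MYLIP (-1.43 ± 0.074), INSIG1 (-1.10 ± 0.052) and SREBF2 (-1.03 ± 0.019) were lower in PANC1 too. SC5D (1.32 ± 0.045), PMVK (1.09 ± 0.035) and TM7SF2 (1.07 ± 0.057) were higher. All 8 of these had an adjusted p under 0.05 by limma.

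Because RPKM is per gene length, levels can also be set beside each other between genes. In collagen the highest group means were those of SREBF2 in BXPC3 (202 RPKM) and DHCR7 in PANC1 (137 RPKM). SREBF2 was followed in BXPC3 by HMGCS1 (177 RPKM), NPC2 (137), INSIG1 (134) and FDPS (128), of which the libraries of NPC2 and INSIG1 overlap, as do those of INSIG1 and FDPS. In PANC1 the order after DHCR7 was FDPS (117 RPKM) and SREBF2 (107). The lowest in BXPC3 were CYP51A1 (1.32 RPKM), ABCG1 (2.61) and GGPS1 (5.61), and in PANC1 ABCG1 (1.75), CYP51A1 (1.88) and FDFT1 (3.07). In 7.5% GelMA HMGCS1 reached 452 RPKM in BXPC3 and 83.6 in PANC1.

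**Figure D5:**
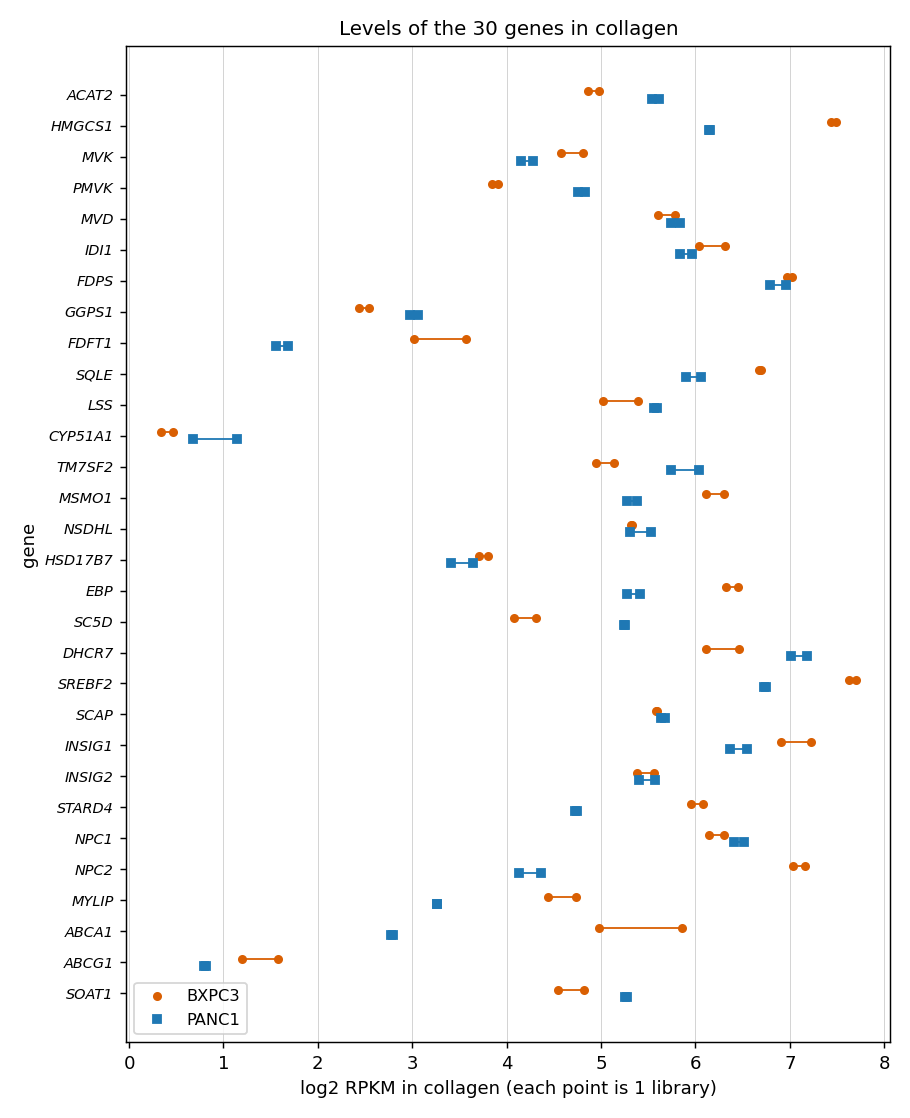
Log2 RPKM in collagen (horizontal axis) of the 30 genes (vertical axis, ordered by role); each point is 1 library of BXPC3 or PANC1, and a line joins the 2 libraries of a line. ABCA1 and NPC2 show the widest gaps between the lines, and ABCG1 and CYP51A1 are the lowest genes.

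Of 49 other genes of the pathway, in lists that cover SREBP processing, isoprenoid use, other sterol steps, other lipoprotein uptake, sterol movement and LXR, 47 were in the table and 44 were tested. In BXPC3 9 were higher and 11 lower, and in PANC1 15 were higher and 14 lower. Those shares are near the background, which was 19.4% higher and 16.7% lower in BXPC3 and 27.7% higher and 27.4% lower in PANC1. TMEM97, a sterol-regulated membrane protein, rose in BXPC3 by 0.50 ± 0.069 (adjusted p = 0.000458). In PANC1 the highest among called genes were ERG28 (0.80 ± 0.06), a scaffold of the sterol enzymes, DHDDS (0.74 ± 0.052), which makes dolichol chains, and NCEH1 (0.66 ± 0.051), a cholesterol ester hydrolase.

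Lipoprotein receptors were among the lowest called genes. VLDLR fell by 1.21 ± 0.115 in BXPC3 (adjusted p = 6.62e-05) and by 1.84 ± 0.115 in PANC1 (adjusted p = 8.24e-07). LRP1 fell by 0.62 ± 0.079 (adjusted p = 0.000311) and 1.05 ± 0.079 (adjusted p = 2.86e-06). NR1H3, which encodes an LXR receptor, fell by 0.67 ± 0.119 in BXPC3 (adjusted p = 0.00197). SCARB1, a receptor for high-density lipoprotein, was at 5.00 and 4.82 in collagen and 5.28 to 5.55 in GelMA in BXPC3, and at 8.17 and 8.11 and 6.82 to 7.55 in PANC1. It rose by 0.50 ± 0.06 in the first and fell by 0.95 ± 0.06 in the second, a difference of -1.44 ± 0.085 (adjusted p = 1.96e-06).

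SREBF1, which encodes the SREBP of fatty acid synthesis, went the same ways. It was at 8.52 and 8.002 in collagen, 8.99 and 8.70 in 5% and 8.56 and 8.55 in 7.5% GelMA in BXPC3, and at 7.66 and 7.57, 7.27 and 7.25 and 6.43 and 6.47 in PANC1. It rose by 0.44 ± 0.119 in BXPC3 (adjusted p = 0.0169), where each GelMA library lay above both collagen libraries, and fell by 0.76 ± 0.119 in PANC1 (adjusted p = 0.000403), and the lines differed by -1.20 ± 0.169 (adjusted p = 0.000391).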

How the data were processed

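Poly-A RNA from 12 libraries was sequenced, per the labels' protocols. HISAT2 2.1.0 and HTSeq were used with GRCh38 (hg38), per the submitters' processing notes; neither settings nor annotation nor strand setting is stated there. The authors deposited log2 RPKM for 16299 Ensembl genes, with values from -8.66 to 13.74. After sorting, the libraries matched each other within 0.05 log2 over the top 13758 ranks, so the deposited values were taken to be quantile normalized, which removes a change shared by most genes. Read counts were not used here, so no counting interval is given and the error is the spread between libraries.

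Symbols came from a table of gene names (16250 IDs) and GENCODE 29 (49 IDs), the latter also giving positions on GRCh38. The 15794 genes that reached 1 RPKM in 2 or more libraries (505 left out) were fitted with limma 3.58.1 in R 4.3.3 (group means over all 12 libraries, eBayes with a mean-variance trend, 6 residual and 3.89 prior degrees of freedom). The fit had been tested on simulated normal values. Unlike these data, those were not quantile normalized and few of their genes changed, so that test does not show how the fit behaves here. Adjusted p-values are Benjamini-Hochberg over all tested genes in each comparison, and a gene was called under 0.05. Each difference is given with its standard error (SE).

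The members and lists were chosen with earlier results of these data known. All 30 members are named. Of the other pathway genes, those named were the 3 highest and 3 lowest called in each line's GelMA comparison, and SREBF1. Alternatives were other filters, log2(RPKM + 1), housekeeping centring, limma options, the replicate block and each library left out. Of single genes, only the 30 members were followed through these. Each percentage of GelMA against collagen and the difference between the lines in the 7.5% step were put through these alternatives only after seeing the data.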

Additional observations from a re-analysis of the deposited data

Results flagged for a closer look

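The following members had a GelMA effect, or a step from 5% to 7.5% GelMA, that differed between the lines by limma's test of the difference itself. Values are log2 and are the PANC1 effect minus the BXPC3 effect.

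For GelMA against collagen the difference was lower in PANC1 for INSIG2 (-1.06), HMGCS1 (-0.80), NPC1 (-0.77), INSIG1 (-0.73), MVD (-0.61), IDI1 (-0.29), STARD4 (-0.26), SCAP (-0.18) and SREBF2 (-0.16). It was higher in PANC1 for NPC2 (0.92), EBP (0.56), SC5D (0.41), HSD17B7 (0.32) and PMVK (0.26). INSIG2 fell in both lines, and NPC1 rose in BXPC3 and fell in PANC1.

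For 7.5% against 5% GelMA it was lower in PANC1 for FDFT1 (-1.49), INSIG1 (-0.78), HMGCS1 (-0.63), HSD17B7 (-0.61), FDPS (-0.56), ACAT2 (-0.45), SREBF2 (-0.40) and STARD4 (-0.35). HMGCS1, INSIG1, SREBF2 and STARD4 were lower in PANC1 in both lists, while HSD17B7 was higher in the first and lower in the second.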

How the results depend on the processing

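There were 20 alternatives, of which 18 to 20 could be run for a given gene and comparison. Under those run, of the 30 members 22 kept their call and direction in BXPC3 GelMA against collagen, 26 in PANC1, 14 in the difference between the lines, 29 and 20 in 7.5% against 5% GelMA (BXPC3 and PANC1), 25 in PANC1 against BXPC3, 28 and 24 in PANC1 5% and 7.5% GelMA against collagen and 25 in the difference between the lines in the 7.5% step. With housekeeping centring SCAP turned to -0.008 in BXPC3, and LSS (-0.23), CYP51A1 (-0.28) and NSDHL (-0.16) turned in PANC1 against BXPC3. It also gave 11 synthesis genes and 4 others for the difference between the lines in the GelMA effect, in place of 7 and 7. The cause was not tested.

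With 1 library left out, counts of synthesis genes and of the others ran from 15 to 16 and 5 to 8 (BXPC3 GelMA), 15 to 17 and 4 to 5 (PANC1 GelMA), 5 to 9 and 6 to 7 (difference between the lines), 0 to 1 and 0 to 0 (BXPC3 7.5% against 5%; HMGCS1 without BXPC3 5% GelMA replicate 2), 6 to 12 and 4 to 5 (PANC1 7.5% against 5%), 17 to 17 and 10 to 11 (PANC1 against BXPC3), 17 to 17 and 4 to 6 (PANC1 5% against collagen), 12 to 15 and 8 to 8 (PANC1 7.5% against collagen) and 4 to 7 and 2 to 3 (difference between the lines in the 7.5% step). Over all genes, BXPC3 GelMA gave 3623 calls in place of 5703 without BXPC3 collagen replicate 2. The PANC1 7.5% step gave 1449 to 1746 in place of 2956 whichever PANC1 GelMA library was left out, and the BXPC3 step 1 to 33 in place of 13 with 1 library left out. That step gave 3 with at least 1 RPKM in all 12 libraries, and 0 with log2(RPKM + 1), with BXPC3 alone and with the replicate block. The difference between these steps gave 659 to 873 in place of 1417 when each of 7 GelMA libraries was left out in turn, and 941 without the mean-variance trend.

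Replicate numbers did not pair the libraries: the deviations of same-numbered libraries correlated at -0.048 to 0.077. With the replicate block the counts of synthesis genes and of the others were 15 and 6 in BXPC3 GelMA, 17 and 5 in PANC1 GelMA, 6 and 7 for their difference, 0 and 0 for 7.5% against 5% in BXPC3 and 8 and 5 in PANC1. Depth is unknown, and with 2 libraries a group, small steps such as those of SREBF2 and SCAP rest on little.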
